A study of Mus musculus with 2 samples.

Results

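Genes of the NF-kB system were followed through the immune cells of B16 tumours, 10 in all, namely the 5 subunit genes Nfkb1, Nfkb2, Rel, Rela and Relb and the 5 inhibitor or feedback genes Nfkbia, Nfkbib, Nfkbie, Nfkbiz and Tnfaip3. They were chosen by gene symbol, and all 10 were among the 31053 genes counted. B16 is a mouse melanoma cell line, and live cells bearing the leucocyte protein CD45 were sorted from tumours of mice aged 8 weeks and profiled by single-cell RNA sequencing with the Chromium 3' v3 chemistry. The library labelled WT came from mice with floxed Mettl3 alleles and no Cre (Mettl3 fl/fl Lyz2 +/+), and the library labelled KO from mice that carried in addition a Cre gene in 1 Lyz2 allele (Mettl3 fl/fl Lyz2 cre/+). Both shared the floxed alleles and the C57BL/6 background, and Lyz2-driven Cre is active in macrophages, monocytes, granulocytes and some dendritic cells, so a difference can come from any of these. There was 1 library per genotype, made from pooled cells, which leaves the variation among mice unknown, and genotypes were compared by description alone. Intervals are 95% intervals that cover counting error only. Where 2 of them lie apart, the libraries differ, and what the genotypes do is not shown.

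NF-kB is a family of transcription factors that act as pairs. In resting cells the pairs are held in the cytoplasm by IkB proteins, and signals from Toll-like receptors, interleukin-1 or TNF lead the IKK kinase to have IkB destroyed, so that pairs of RelA or c-Rel with p50, the product of Nfkb1, enter the nucleus. A slower arm, driven by CD40 and related receptors through the kinase NIK, processes the Nfkb2 product p100 to p52, the partner of RelB. Several target genes of the pathway encode its own brakes. IkB alpha, from Nfkbia, and the ubiquitin-editing enzyme A20, from Tnfaip3, are made anew after activation, and some subunit genes are targets as well. Mettl3 is the gene of the catalytic subunit that methylates adenosines in RNA.

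Short stretches that NF-kB pairs are known to bind, called kappaB motifs, lie near the start of several of these genes. They are shown because several of the members are known as targets of NF-kB themselves. The letters searched were GGG, then 2 bases of any kind, then either TTTCC or TTCCC, which gives 2 motifs, and they were sought on both strands in the RefSeq promoter windows of build GRCm38.p6, which run from 250 bases before to 50 bases after a gene's start. The 2 motifs can overlap each other in 1 site. At least 1 of them was present in 1063 of 32851 windows of all genes, which is 3.24%. Windows were at hand for 7 of the 10 members (Nfkb2, Rel, Rela, Nfkbia, Nfkbib, Nfkbie and Tnfaip3), and 4 of these 7 genes held a match. Counted as windows, as the share above is, this was 6 of 10, since Nfkb2 had 3 overlapping or neighbouring windows and Tnfaip3 had 2. Nfkb1, Relb and Nfkbiz had no window. Each line gives 30 bases of the gene's own strand with the matched letters in capitals. A match describes the sequence and is not by itself a bound site, and no match says only that these letters are not in that window.
Nfkb2, chr19:46304688-46304717: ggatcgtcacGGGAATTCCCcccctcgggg
Nfkb2, chr19:46304717-46304746: gggccgaaagGGGCTTTCCCggctggagcc
Nfkb2, chr19:46305695-46305724: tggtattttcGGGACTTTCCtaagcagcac
Rel, chr11:23771042-23771071: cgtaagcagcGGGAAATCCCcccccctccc
Nfkbia, chr12:55492657-55492686: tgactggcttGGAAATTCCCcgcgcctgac
Tnfaip3, chr10:19015403-19015432: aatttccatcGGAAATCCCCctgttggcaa

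The first capital lay 39 and 10 bases before the first Nfkb2 start and 11 bases into the transcript from another, 92 bases before the Rel start, 29 before that of Nfkbia and 12 before that of Tnfaip3. The second Nfkb2 line and the Rel line each also held the other motif, shifted by 1 base. In the Nfkbia, Rel and Tnfaip3 lines the motif reads on the opposite strand. Genes that share a motif did not share a pattern, since Nfkb2 and Rel were highest in mature dendritic cells and Nfkbia and Tnfaip3 in granulocytes, as the levels below show.

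Depth is counted in unique molecular identifiers (UMIs), 1 for each captured molecule. It came to 45963969 UMIs in 5895 barcodes for the library labelled WT and 54052317 in 8446 for that labelled KO. After a filter on detected genes and mitochondrial share, 5661 and 8157 cells were kept, with median depths of 4354 and 3740 UMIs. Cells were assigned to 14 classes by marker genes that include no NF-kB gene, and 12 classes held at least 50 cells in each library. Check markers that the gates did not use were at least 2-fold above the median class in both libraries for every marker of every class, except for Ednrb, at 0 in melanoma-like cells. Cells outside the classes made up 25.3% of the WT and 24.6% of the KO library, and 780 and 1179 cells lay within 2-fold of the C1q level that separates monocyte-like from macrophage-like cells. The targeted gene did not set the libraries apart. In macrophage-like cells the level of Mettl3 in CPM (UMIs of a gene per 1000000 UMIs of the class) was 9.80 for WT and 10.5 for KO, a log2 ratio of 0.10 (interval -0.19 to 0.40). A 3' tag outside the deleted part cannot show the deletion, so directions between genotypes rest on the labels. Lyz2, whose allele carries Cre, was lower in the library labelled KO in macrophage-like cells, by a log2 ratio of -1.16 (interval -1.18 to -1.15). The libraries had 13 barcodes in common.

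Levels are CPM of a class, from UMIs summed over its cells within a library. They are compared for 1 gene across classes and never between genes, because the 3' counts carry no common scale of transcript length or capture. The classes follow markers, so fewer mRNA molecules of a gene per cell and a different mixture of cell states in a class cannot be told apart.

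Of the 5 subunit genes 4, all but Rela, peaked in mature dendritic cells. These are dendritic cells that carry Fscn1 and Ccr7, the gene for the chemokine receptor that leads them to lymph nodes, and there were 108 of them in the WT and 166 in the KO library. Of the 10 members, 6 (Nfkb1, Nfkb2, Rel, Relb, Nfkbib and Nfkbie) had their highest level over the 12 classes in mature DC-like cells in both libraries, where 7.06% of the 6307 genes compared did so. For each of the 6, both libraries of this class lay above every library of every other class. Gene positions given below are those of the GENCODE M21 annotation of GRCm38.

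Relb (chr7:19606217-19629438), the subunit of the slower arm, stood out most between classes. Its level in mature DC-like cells was 405 CPM (interval 359 to 456) in the WT and 375 CPM (338 to 416) in the KO library. None of the other classes with at least 50 cells exceeded 41.4 CPM, the value of nonclassical monocyte-like cells in the KO library, and macrophage-like cells were at 19.2 and 21.9 CPM. The mean over libraries was 14.2 times the median of the other classes. The other immune classes of the 12 ran from 19.2 to 41.4 CPM, with granulocyte-like, pDC-like and nonclassical monocyte-like cells overlapping at the head of them. Melanoma-like cells lay below these, at 7.95 and 9.59 CPM.

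Nfkb2 (chr19:46304320-46312385) encodes p100, the precursor of the RelB partner p52, and shared its highest class with Relb. It was at 273 CPM (235 to 316) and 280 CPM (248 to 315) in mature DC-like cells. The next class, nonclassical monocyte-like cells, was at 99.7 and 84.9 CPM. Macrophage-like cells were at 28.8 and 35.1 CPM and melanoma-like cells at 10.5 and 8.72 CPM, so the lowest class was the tumour cell class.

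Rel (chr11:23736847-23770970) encodes c-Rel, a subunit known for its role in lymphocytes and dendritic cells. Mature DC-like cells held 519 CPM (466 to 577) in the WT library and 522 CPM (478 to 569) in the KO library. B-like cells came second with 230 and 141 CPM, from 48 and 17 UMIs. Every other immune class of the 12 was between 44.1 CPM, in macrophage-like cells of the KO library, and 117 CPM, in nonclassical monocyte-like cells of the WT library. In melanoma-like cells Rel was at 5.68 and 8.59 CPM.

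Nfkb1 (chr3:135584655-135691547), which encodes the p50 precursor p105, was spread more evenly. Its levels were 414 (367 to 466) and 430 CPM (390 to 473) in mature DC-like cells, 315 and 361 CPM in cDC2-like cells and 317 and 307 CPM in nonclassical monocyte-like cells. Classical monocyte-like cells were at 199 and 211 CPM. Macrophage-like cells, with 106 and 119 CPM, were the lowest immune class. The step from mature DC-like cells to cDC2-like cells was small beside that of Relb, and the interval of the KO library in cDC2-like cells (327 to 398) overlapped that of the WT library in mature DC-like cells.

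Rela (chr19:5637483-5648130), which encodes the main activating subunit p65, had no single class of its own. It was at 111 and 105 CPM in mature DC-like cells and at 103 and 108 CPM in nonclassical monocyte-like cells, and the 2 classes overlapped. The remaining immune classes ran from 44.7 CPM, in cDC1-like cells of the WT library, to 89.2 CPM, in granulocyte-like cells of the same library. Melanoma-like cells were at 26.1 and 29.1 CPM.

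**Figure D1:**
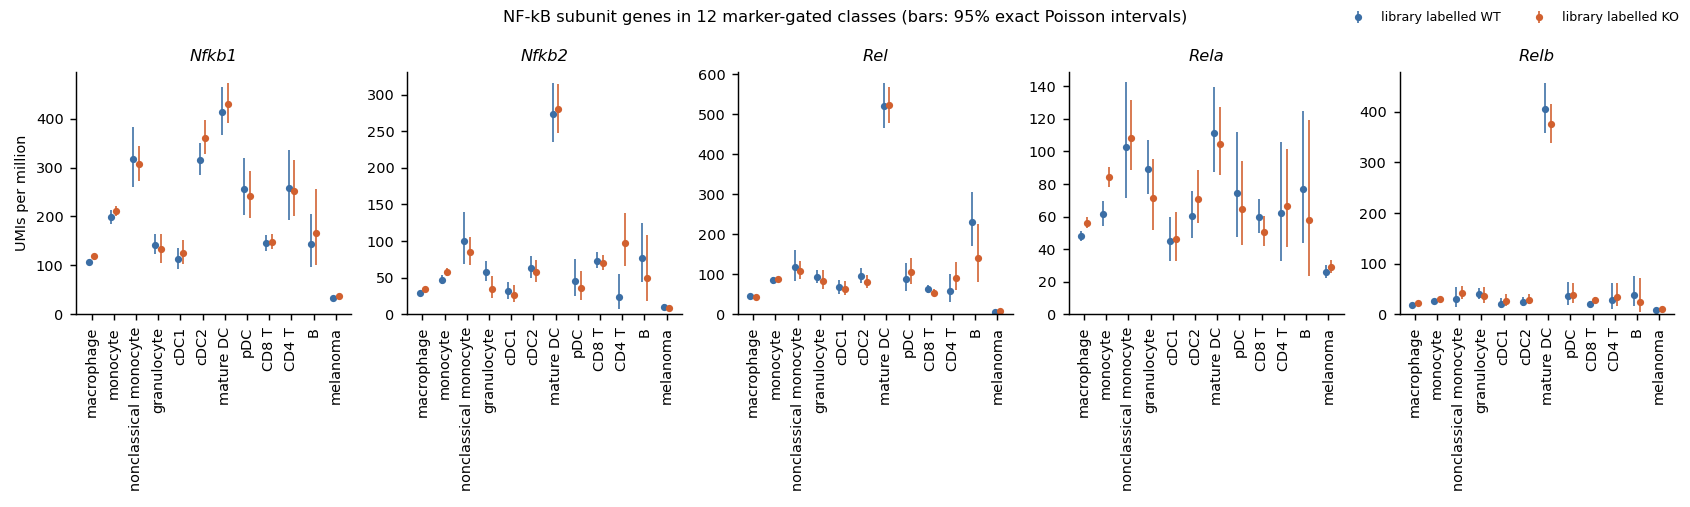
Levels of the 5 subunit genes (vertical axis, CPM, from 0, with a scale of its own for each gene) in 12 marker-gated classes (horizontal axis) of the libraries labelled WT (blue) and KO (orange), with bars for 95% exact Poisson intervals of counting error. Relb is at 405 and 375 in mature DC-like cells and at most 41.4 in the other classes drawn, whereas Rela overlaps between mature DC-like and nonclassical monocyte-like cells.

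The inhibitors fell into 2 groups. Nfkbib and Nfkbie, the genes of IkB beta and IkB epsilon, peaked in mature DC-like cells, and Nfkbia, Nfkbiz and Tnfaip3 peaked in granulocyte-like cells. Granulocyte-like cells were gated on S100a8, S100a9, Retnlg and Csf3r, genes of neutrophils, and numbered 598 in the WT and 282 in the KO library. Of the 10 members 3 were highest there in both libraries, where 8.36% of all genes compared were. For each of the 3, both libraries of granulocyte-like cells exceeded all other classes.

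Nfkbib (chr7:28758251-28767512) was at 156 (127 to 189) and 142 CPM (120 to 168) in mature DC-like cells. None of the other 11 classes was above 63.2 CPM. Nfkbie (chr17:45555703-45563169) was at 72.7 (53.8 to 96.1) and 91.5 CPM (73.6 to 113) there, and its next class, nonclassical monocyte-like cells, reached 54.2 CPM in the KO library, from 51 UMIs. The intervals of Nfkbie in these classes overlapped.

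Nfkbia (chr12:55489410-55492647), the gene of IkB alpha, was at 1439 CPM (1375 to 1505) in granulocyte-like cells of the WT library and at 681 CPM (618 to 749) in those of the KO library. Of the 12 classes mature DC-like cells came next with 537 and 545 CPM, followed by CD4 T-like cells with 410 and 502 CPM. Monocyte-like cells were at 310 and 307 CPM and macrophage-like cells at 167 and 183 CPM. The gene was abundant in every immune class and low in melanoma-like cells, at 24.7 and 24.8 CPM.

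Nfkbiz (chr16:55811375-55838899) encodes IkB zeta, an atypical nuclear IkB that assists the transcription of a subset of target genes. It was at 351 CPM (320 to 384) in granulocyte-like cells of the WT library and 196 CPM (163 to 234) in those of the KO library. Nonclassical monocyte-like cells held 150 and 94.5 CPM and pDC-like cells 110 and 131 CPM. Mature DC-like cells, at 47.5 and 43.7 CPM, did not differ from macrophage-like cells, at 44.4 and 42.0 CPM, beyond counting error.

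Tnfaip3 (chr10:19000910-19015657) was at 246 CPM (220 to 274) and 163 CPM (133 to 197) in granulocyte-like cells. CD4 T-like cells followed with 115 and 107 CPM and mature DC-like cells with 113 and 91.5 CPM, and these 2 classes overlapped. CD8 T-like cells were at 87.0 and 81.7 CPM. Macrophage-like cells were at 35.4 and 48.4 CPM.

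**Figure D2:**
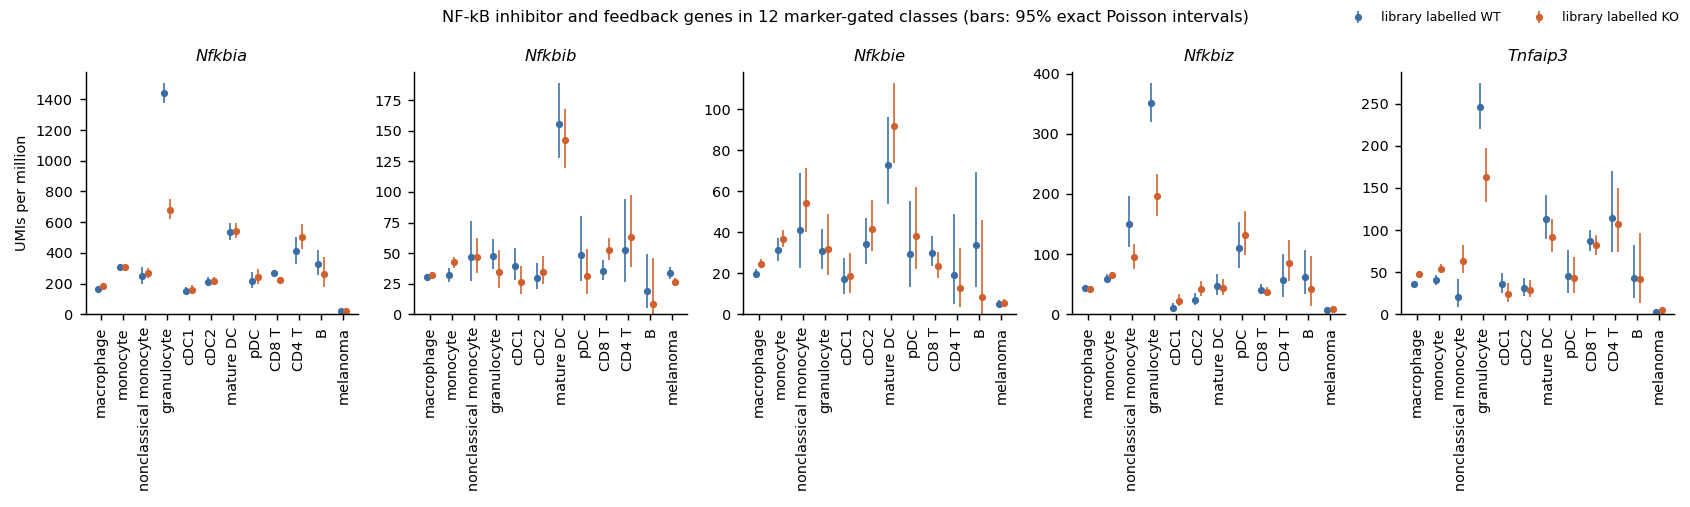
Levels of the 5 inhibitor and feedback genes (vertical axis, CPM, from 0, with a scale of its own for each gene) in 12 marker-gated classes of the libraries labelled WT (blue) and KO (orange), with bars for 95% exact Poisson intervals. Nfkbia, Nfkbiz and Tnfaip3 are highest in granulocyte-like cells, where the KO library lies below the WT library, and Nfkbib and Nfkbie are highest in mature DC-like cells.

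Mature DC-like cells were then set against the other conventional dendritic cells of the same library, cDC1-like cells (Xcr1 and Clec9a, 82 and 75 cells) and cDC2-like cells (Cd209a, 152 and 175 cells). A member entered such a contrast with at least 100 UMIs over both classes in each library. Over cDC1-like cells, 8 of the 8 members that entered were past 1.5-fold higher in both libraries, where 21.7% of genes were. Over cDC2-like cells 6 of 8 were, where 17.4% of genes were, and the exceptions were Nfkb1 and Rela. Nfkbie and Nfkbiz had too few UMIs to enter.

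Relb had the largest step, with log2 ratios over cDC2-like cells of 4.07 (3.51 to 4.69) in the WT and 3.72 (3.20 to 4.29) in the KO library. Among the subunits Rel followed with 2.43 and 2.69 and Nfkb2 with 2.10 and 2.28. Nfkb1 was higher than in cDC2-like cells by only 0.39 (0.16 to 0.62) and 0.25 (0.05 to 0.45) on the log2 scale. Over cDC1-like cells, however, Nfkb1 was higher by 1.88 and 1.78, since cDC1-like cells held 113 and 126 CPM and cDC2-like cells more.

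Among the inhibitors, Nfkbib rose most over cDC2-like cells, by log2 ratios of 2.37 (1.81 to 2.97) and 2.04 (1.52 to 2.59). Tnfaip3 was higher by 1.87 and 1.64 and Nfkbia by 1.33 and 1.35. The median over the members was 1.98 in the WT and 1.84 in the KO library, while the median over all genes that entered was -0.32 and -0.25. Over macrophage-like cells 9 of 10 members were past 1.5-fold higher in both libraries, where 12.2% of genes were, and Nfkbiz was the exception with log2 ratios of 0.10 (-0.46 to 0.60) and 0.06 (-0.42 to 0.50).

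**Figure D3:**
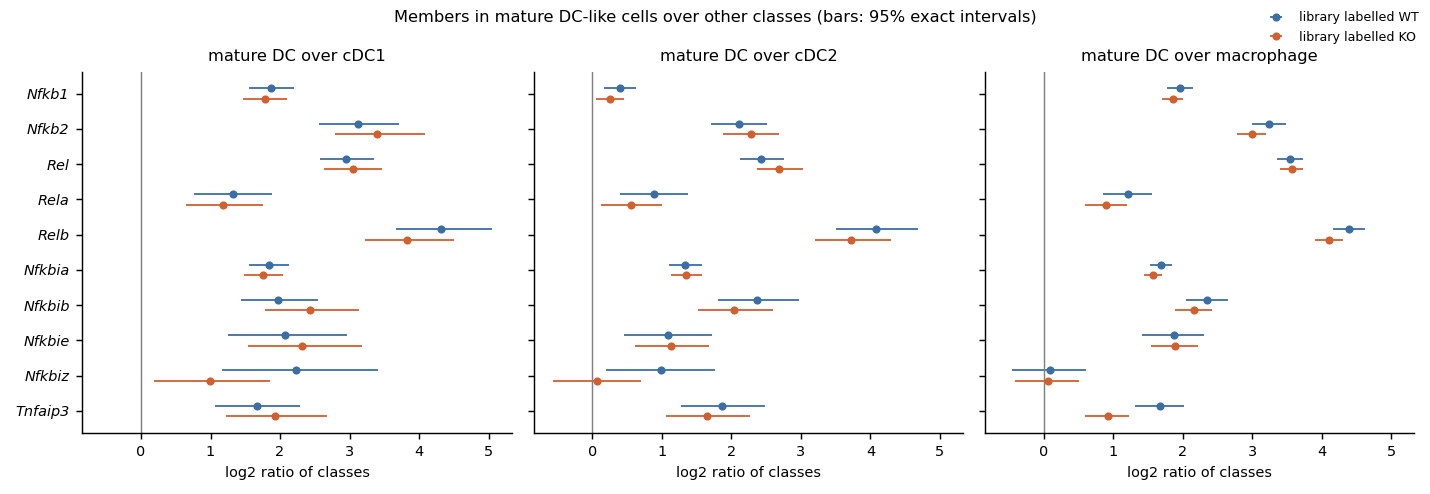
Log2 ratios of members (rows) in mature DC-like cells over cDC1-like, cDC2-like and macrophage-like cells (panels) in the libraries labelled WT (blue) and KO (orange), with bars for 95% exact intervals of counting error. Nfkbie and Nfkbiz had under 100 UMIs in a library over cDC1-like and cDC2-like cells. Relb lies at 3.72 or more in every panel and Nfkb1 close to 0 only over cDC2-like cells, and the libraries overlap for every member except Tnfaip3 over macrophage-like cells.

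Other genes of the pathway moved in the same direction in part. Of a list of 40 kinases, adaptors, ubiquitin enzymes and further IkB genes, 15 had enough UMIs against cDC2-like cells, and 7 were past 1.5-fold higher in both libraries and 2 lower, where 29% of all genes were lower. Over macrophage-like cells 17 of 39 were higher and 4 lower, where 12.2% of all genes were higher and 39.8% lower. Traf1, an adaptor of TNF-receptor-family signalling, was at 724 and 682 CPM in mature DC-like cells and at 23.8 and 26.6 CPM in macrophage-like cells. Birc2, which encodes the ubiquitin ligase cIAP1, was at 367 and 426 CPM against 23.2 and 27.7 CPM. Of 13 ligands and receptors measured against macrophage-like cells 3 were higher and 7 lower. Within the list of 27 targets, which shares Traf1 and Birc3 with the pathway list, 12 of 24 were higher and 9 lower.

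Markers of other cells were low in mature DC-like cells. The 9 macrophage markers summed to 497 and 522 CPM and the 8 monocyte markers to 503 and 650 CPM, in the WT and the KO library. Of 7 NK cell markers 5 (Ncr1, Klrb1c, Klra4, Klra8 and Eomes) were at 0 in both libraries.

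Between genotypes, members in macrophage-like cells (1524 and 2122 cells) differed little. No member was past 1.5-fold either way, 0 of 10, where 3.33% of 10140 genes were. The log2 ratio of KO over WT was above 0 for 8 of 10, with a median of 0.18, beside 0.01 over all genes. The counting intervals excluded 0 for 6 members, but with 1 library per genotype this says nothing of mice.

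Tnfaip3 had the largest ratio in macrophage-like cells. Its level was 35.4 CPM (32.8 to 38.2) in the WT and 48.4 CPM (45.4 to 51.5) in the KO library, a log2 ratio of 0.45 (0.31 to 0.60). Nfkbie followed with 19.8 and 24.7 CPM and a log2 ratio of 0.32 (0.12 to 0.52), then Nfkb2 with 0.29 (0.12 to 0.45) and Rela with 0.23 (0.10 to 0.36). Nfkb1 was at 0.16 (0.08 to 0.25) and Nfkbia at 0.13 (0.07 to 0.20). When each cell took the class of its highest marker share, the Tnfaip3 ratio was 0.23 and that of Nfkbia -0.01. The remaining 4 had intervals that held 0, with Relb at 0.19 (-0.02 to 0.39), Nfkbib at 0.06 (-0.10 to 0.23), Rel at -0.01 (-0.15 to 0.13) and Nfkbiz at -0.08 (-0.22 to 0.06). With all UMIs, the intervals of these 4 leave out a 1.5-fold change either way. When each cell was thinned to 1000 UMIs the Rela ratio turned to -0.07 and the Relb ratio rose to 0.71 (-0.01 to 1.47), past 1.5-fold but from 24 and 54 UMIs, under the minimum of 100.

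Tnfaip3 was higher in the KO library in each of 3 states of macrophage-like cells. The log2 ratio was 0.41 (0.08 to 0.74) in cycling cells, 0.36 (0.11 to 0.61) in cells high for MHC class II and 0.32 (0.03 to 0.62) in cells low for it. Within a library its levels did not differ beyond counting error between MHC class II-high cells and either of the other states, with 31.2 and 41.4 CPM in cycling, 33.6 and 43.2 CPM in MHC class II-high and 34.3 and 42.9 CPM in MHC class II-low cells.

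Some other members differed between states. Relb was at 14.2 and 16.7 CPM in MHC class II-low cells and at 24.7 and 24.9 CPM in MHC class II-high cells. Nfkbie was lower in cycling than in MHC class II-high cells, with log2 ratios of -0.99 (-1.45 to -0.55) and -1.04 (-1.44 to -0.65). It was lower in MHC class II-low than in MHC class II-high cells too, with -0.50 (-0.88 to -0.14) and -1.01 (-1.40 to -0.63). Cycling macrophage-like cells were also the deepest of these states, with median UMI counts of 16537 and 13977, and the part of depth in these values was not tested.

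Among the other pathway genes in macrophage-like cells, 1 of 40 was past 1.5-fold. This was Malt1, a protease that links receptors to IKK, at 23.3 CPM (21.2 to 25.6) in the WT and 38.9 CPM (36.2 to 41.7) in the KO library. Of 15 ligands and receptors measured it was Il1b, at 82.1 and 146 CPM. Over all genes 1.96% were higher and 1.37% lower. Of 25 targets 5 were higher (Il1b, Ptgs2, Plaur, Clec4e and Gpr84) and 1 was lower (Cxcl1, at 6.69 and 4.13 CPM). The next lowest was Cxcl2 at 253 and 183 CPM, a log2 ratio of -0.47 (-0.53 to -0.40). Ccl22 followed with -0.25 (-0.59 to 0.09), Cd83 with -0.11 (-0.22 to -0.01) and Cxcl3 with -0.09 (-0.29 to 0.11). The median log2 ratio of the 25 targets was 0.14. None of 14 stress and immediate-early genes passed 1.5-fold. The median log2 ratio of these 14 was 0.19, beside 0.18 for the members and 0.01 over all genes. Il1b is in both lists. The 8 monocyte markers summed to 1179 CPM in macrophage-like cells of the WT and 1884 CPM in those of the KO library, with 7 of 8 higher and none at 0, and the 10 granulocyte markers to 206 and 114 CPM, with 4 of 10 higher. The part of these markers in the ratios was not tested.

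Monocyte-like cells (851 and 2117 cells) gave a like picture for the members. No member passed 1.5-fold, 0 of 10, where 4.77% of 7939 genes did. Of the 10 log2 ratios 9 were above 0, with a median of 0.22, beside -0.003 over all genes. In the same cells the 9 macrophage markers summed to 2191 CPM in the WT and 1726 CPM in the KO library, with 0 of 9 higher and none at 0, and the 9 melanoma markers to 149 and 222 CPM, with 5 of 9 higher. Of 14 stress and immediate-early genes 1 was past 1.5-fold higher (Atf3) and 1 lower (Fos), and their median log2 ratio was -0.16. The part of these differences in the ratios was not tested. Rela was at 61.4 CPM (54.1 to 69.4) in the WT and 84.1 CPM (78.0 to 90.5) in the KO library, a log2 ratio of 0.45 (0.25 to 0.67). Tnfaip3 was at 40.2 and 54.0 CPM, a log2 ratio of 0.43 (0.17 to 0.69), and Nfkbib at 32.0 and 42.3 CPM, one of 0.40 (0.11 to 0.70). Nfkbia did not differ beyond counting error, with 310 and 307 CPM and a log2 ratio of -0.01 (-0.11 to 0.08). With each cell thinned to 1000 UMIs 3 members passed 1.5-fold higher, Nfkb2 with a log2 ratio of 0.66, Rela with 0.75 and Nfkbib with 1.14, the last from 19 and 103 UMIs, and the Tnfaip3 ratio turned to -0.16, from 47 and 104 UMIs. The share of all genes past 1.5-fold with thinned cells is not given here, so nothing is read from this count.

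In monocyte-like cells high for MHC class II, Rela was at 46.9 and 71.3 CPM with a log2 ratio of 0.60 (0.24 to 0.97), which is beyond 1.5-fold, as was Relb at 24.8 and 40.5 CPM with one of 0.71 (0.22 to 1.22). In those low for it the ratio was 0.32 (0.07 to 0.59) for Rela and -0.19 (-0.65 to 0.28) for Relb, and the difference between states was not tested. The share of all genes past 1.5-fold within a state is not given here.

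Compared with macrophage-like cells of the same library, monocyte-like cells held more Nfkb1, Nfkb2, Rel and Nfkbia. These 4 of 10 were past 1.5-fold higher in both libraries, where 10.6% of genes were. The log2 ratio of Rel was 0.93 (0.74 to 1.11) in the WT and 0.98 (0.84 to 1.12) in the KO library. Nfkb1 was higher by 0.91 and 0.83 and Nfkb2 by 0.71 and 0.72. Tnfaip3 was nearly level, with 0.18 (-0.07 to 0.43) and 0.16 (-0.01 to 0.32).

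**Figure D4:**
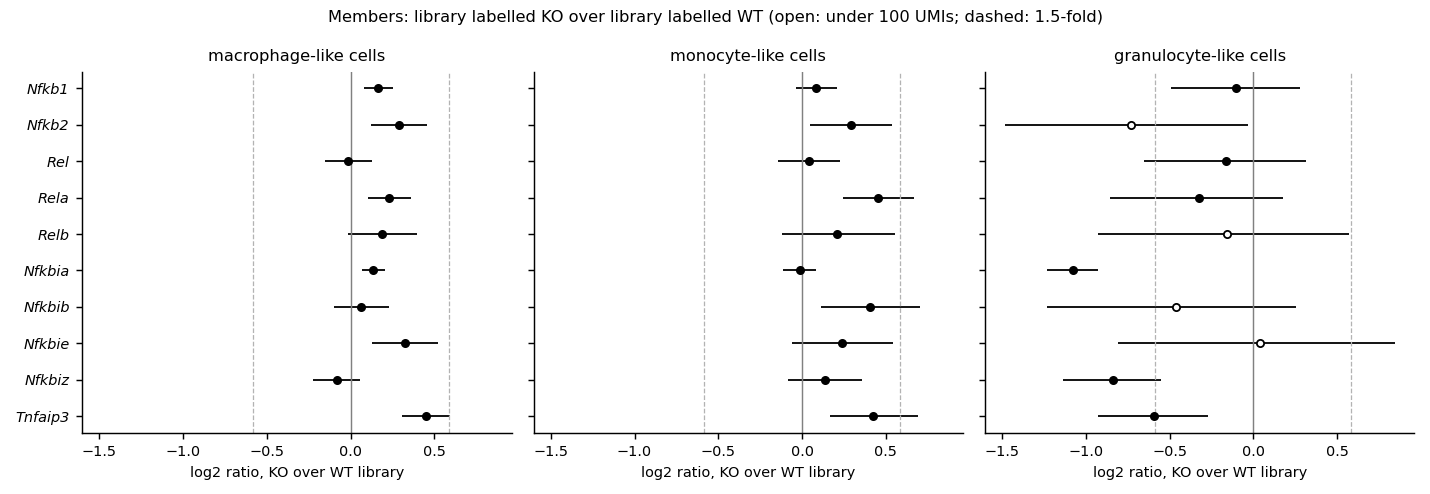
Log2 ratios of the library labelled KO over that labelled WT (horizontal axis) for the 10 members (rows) in macrophage-like, monocyte-like and granulocyte-like cells (panels), with bars for 95% exact intervals of counting error, open points for members under 100 UMIs and dashed lines at 1.5-fold. All macrophage and monocyte points lie inside the dashed lines, and Nfkbia, Nfkbiz and Tnfaip3 lie beyond the lower line in granulocyte-like cells.

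In granulocyte-like cells the feedback genes were lower in the library labelled KO. Of the 6 members with at least 100 UMIs over both libraries, 3 were past 1.5-fold lower and none was higher, where 4.4% of 2612 genes were lower and 7.27% higher. These were Nfkbia, Nfkbiz and Tnfaip3, the members that peaked in this class. The levels given above correspond to log2 ratios of -1.08 (-1.23 to -0.93) for Nfkbia, -0.84 (-1.14 to -0.55) for Nfkbiz and -0.59 (-0.93 to -0.27) for Tnfaip3. The Tnfaip3 ratio lay at the edge of 1.5-fold and was -0.27 when each cell took the class of its highest marker share.

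Over all granulocyte-like cells the ratios of the subunits with enough UMIs were closer to 0. Nfkb1 was at 142 and 133 CPM, a log2 ratio of -0.10 (-0.49 to 0.28), Rel at 93.7 and 83.8 CPM, one of -0.16 (-0.65 to 0.31), and Rela at 89.2 and 71.1 CPM, one of -0.33 (-0.86 to 0.18). For Rel and Rela the interval did not leave out a 1.5-fold decrease. Nfkb2, Relb, Nfkbib and Nfkbie were under 100 UMIs, with 20 to 23 UMIs each in the KO library. Of these Nfkb2 had an interval without 0, at 57.7 and 34.8 CPM with a log2 ratio of -0.73 (-1.49 to -0.03).

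The granulocyte-like cells were divided by Retnlg, a gene of mature neutrophils, into 368 and 177 cells with a Retnlg UMI and 230 and 105 cells without. Nfkbia was at 1237 and 549 CPM in Retnlg-positive and at 1903 and 953 CPM in Retnlg-negative cells. Nfkbiz was at 314 and 155 CPM in the former and at 435 and 281 CPM in the latter, and Tnfaip3 at 205 and 136 CPM and at 339 and 218 CPM. The library labelled KO was lower for the 3 genes on both sides of the division, and within each library the Retnlg-negative cells held more of each. For Nfkbia the log2 ratio of Retnlg-negative over Retnlg-positive cells was 0.62 (0.49 to 0.75) in the WT and 0.80 (0.52 to 1.08) in the KO library. Of the subunits with enough UMIs, Rela had a log2 ratio of -0.71 (-1.44 to -0.03) in Retnlg-positive cells, at 88.2 and 54.0 CPM from 82 and 23 UMIs, and one of 0.22 (-0.61 to 1.02) in Retnlg-negative cells, from 37 and 22 UMIs. Cells without a Retnlg UMI were shallower, with median counts of 1193 and 1019 UMIs against 1521 and 1226.

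**Figure D5:**
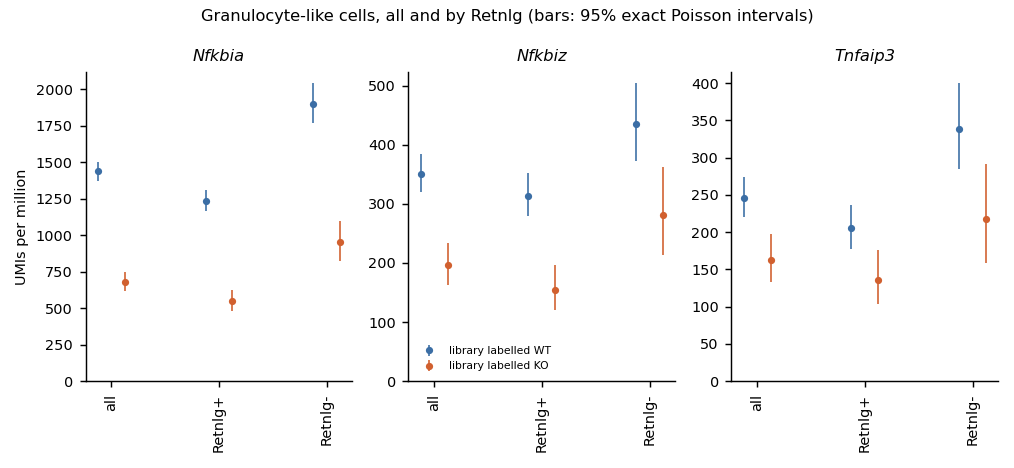
Levels of Nfkbia, Nfkbiz and Tnfaip3 (vertical axis, CPM, from 0, with a scale of its own for each gene) in all granulocyte-like cells and in those with and without a Retnlg UMI, for the libraries labelled WT (blue) and KO (orange), with bars for 95% exact Poisson intervals. The WT library is higher in each of the 3 gates for each gene, for example 1237 against 549 for Nfkbia in Retnlg-positive cells.

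Single cells did not carry these levels. The cell with most Nfkbia UMIs gave 38 of 1920 UMIs in the WT and 37 of 431 in the KO library, and without it the log2 ratio was -1.16. Thinned to 1000 UMIs per cell, which left out 110 and 101 shallower cells, the log2 ratios were -1.31 for Nfkbia, -0.81 for Nfkbiz and -0.80 for Tnfaip3.

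Some known targets of NF-kB were also lower in granulocyte-like cells of the KO library. Of 20 targets measured 9 were past 1.5-fold lower and none was higher, beside the 4.4% of all genes that were lower, and the median log2 ratio was -0.53 beside 0.10 over all genes. The neutrophil chemoattractant gene Cxcl2 was at 11725 and 4287 CPM and Cxcl3 at 1044 and 318 CPM. Ptgs2, the gene of the prostaglandin enzyme COX-2, was at 620 and 373 CPM and Clec4e, a receptor for fungal and mycobacterial glycolipids, at 1050 and 575 CPM. Both of the last genes were higher in macrophage-like cells of the KO library, Ptgs2 at 23.6 and 36.2 CPM and Clec4e at 47.9 and 74.0 CPM. The other 11 targets had log2 ratios from -0.56 (Icam1, interval -1.12 to -0.03) to 0.25 (Tnfaip2, interval 0.10 to 0.39), the ends of the range named after their values were seen. Beside the same 4.4%, of 14 pathway genes 1 was lower (Irak3), and of 9 ligands and receptors 2 were (Il1rap and Cd14), which were named after their values were seen.

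Other properties of granulocyte-like cells differed between the libraries as well. The 6 check markers of the class summed to 3983 CPM in the WT and 2776 CPM in the KO library. The 8 monocyte markers summed to 2378 and 3402 CPM, with 7 of 8 higher in the KO library, and the 9 macrophage markers to 1891 and 1877 CPM, with none at 0. The 9 melanoma markers summed to 202 and 346 CPM, with 6 of 9 higher. Of the stress and immediate-early genes 1 of 14 was past 1.5-fold higher (Atf3) and 2 were lower (Egr1 and Hspa1a), also named after their values were seen. The median log2 ratio of the 14 was -0.24, beside 0.10 over all genes. The part of these differences in the Nfkbia, Nfkbiz and Tnfaip3 values was not tested.

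Against monocyte-like cells of the same library, granulocyte-like cells had 3 of 10 members past 1.5-fold higher in both libraries, where 10.9% of genes were. Nfkbiz was higher by log2 ratios of 2.56 (2.34 to 2.79) in the WT and 1.58 (1.29 to 1.87) in the KO library, Tnfaip3 by 2.61 and 1.59 and Nfkbia by 2.21 and 1.15. Nfkb1 was lower in granulocyte-like than in monocyte-like cells, by log2 ratios of -0.48 and -0.67. The classes thus differed in opposite directions for the gene of p50 and for the feedback genes.

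In the remaining classes few of the members with at least 100 UMIs over both libraries were past 1.5-fold. Those under 100 UMIs were not counted, and some lay further apart in either direction. Tnfaip3 in nonclassical monocyte-like cells was at 20.5 and 63.7 CPM, from 7 and 60 UMIs. Nfkb2 in CD4 T-like cells was at 23.9 and 97.9 CPM, from 5 and 31 UMIs. Nfkbie in B-like cells was at 33.6 and 8.27 CPM, from 7 and 1 UMIs. Mature DC-like cells had 0 of 9 members past 1.5-fold, where 6.64% of genes were, and the ratios of Relb, Rel and Nfkb2 were -0.11 (-0.34 to 0.12), 0.01 (-0.19 to 0.21) and 0.03 (-0.24 to 0.31). CD8 T-like cells had 0 of 10, where 3.49% of genes were, with Nfkbia at 269 and 223 CPM and Nfkbib at 35.8 and 52.7 CPM. Nonclassical monocyte-like cells (83 and 243) had 1 of 6 past 1.5-fold lower, Nfkbiz with a log2 ratio of -0.66 (-1.18 to -0.14), where 1.98% of genes were lower. Melanoma-like cells had 1 of 8 past 1.5-fold higher, Rel at 5.68 and 8.59 CPM with a log2 ratio of 0.60 (-0.01 to 1.23), where 2.67% of genes were higher.

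In T cells, CD4 T-like cells (60 and 94) were set against CD8 T-like cells (362 and 375). Nfkb1 and Nfkbia, 2 of the 7 members that entered, were past 1.5-fold higher in CD4 T-like cells in both libraries, where 8.18% of genes were. Nfkb1 was at 258 and 253 CPM against 145 and 147 CPM, and Nfkbia at 410 and 502 CPM against 269 and 223 CPM. Regulatory T-like cells (26 and 24) and NK-like cells (41 and 82) were too few for the class orders.

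Over all kept cells of a library, which mix the classes in their proportions, Nfkbia was at 248 and 216 CPM and Nfkbiz at 54.5 and 47.4 CPM. Both were lower in the library labelled KO, which held fewer granulocyte-like cells. Higher in it were Nfkbie by a log2 ratio of 0.35 (0.23 to 0.47), Nfkb1 by 0.21, Rela by 0.20, Nfkb2 by 0.19 and Relb by 0.11. Rel (0.02) and Nfkbib (0.04) did not differ beyond counting error. Tnfaip3 was nearly level at 49.6 and 50.7 CPM, with higher levels in macrophage-like and monocyte-like cells and lower ones in granulocyte-like cells of that library. Fewer cells of a type and less RNA per cell cannot be told apart in such sums.

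Genes with the most similar pattern were sought for each member over the 24 sums of 12 classes and 2 libraries, by Pearson's correlation of log2(CPM + 1). These are descriptions, since classes of a library share its depth and its free RNA and the 2 libraries repeat the same classes. Rel was most like Map3k14, the gene of the kinase NIK (r = 0.93), Birc3, that of the ubiquitin ligase cIAP2 (r = 0.92), and Gpr132 (r = 0.92). Relb was most like Pcgf5 (r = 0.92), Map3k14 (r = 0.90) and Tmem150c (r = 0.88). Nfkb2 was most like Myo1g (r = 0.87), Traf1 (r = 0.86) and Epsti1 (r = 0.86). Nfkbia was most like Junb (r = 0.95), an immediate-early gene of the AP-1 family, Srgn (r = 0.93) and Btg1 (r = 0.93). Tnfaip3 was most like Capn1 (r = 0.87), Srgn (r = 0.86) and Psd4 (r = 0.86). Nfkb1 was nearest to Gpr132, Arhgap30 and Ptger4 (r = 0.91 to 0.92) and Rela to Irf1, Gngt2 and Samsn1 (r = 0.85 to 0.87). Nfkbib was nearest to Nhlrc2, Gm12216 and Dnajc12 (r = 0.80 to 0.85). Nfkbie was nearest to Vopp1, Pmaip1 and Gsdmd (r = 0.86). For Nfkbiz they were AC127341.3, Atg2a and Cnppd1 (r = 0.87 to 0.92). Among the members themselves, Nfkbia and Tnfaip3 were closest (r = 0.94), then Nfkb2 and Rel (r = 0.89), and Nfkbib and Nfkbiz were the least alike (r = 0.17).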

How the data were processed

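Cell Ranger (4.0.0 per the file headers), with mm10 named as the build in the submitters' processing notes, gave the UMI counts the authors deposited per gene and barcode, whole numbers with no normalisation, for both libraries in 1 matrix. Barcodes were tied to libraries by a second deposited table. Cells with at least 200 genes and at most 10% mitochondrial UMIs were kept, the limits of the study's methods. Markers assigned cells to classes: a class needed a minimum of marker UMIs and of marker UMIs per 10000 (macrophage 5 and 20, monocyte 3 and 10, granulocyte 10 and 50, mature DC 3 and 5, melanoma 10 and 50, others 1 to 2 and 1 to 5), and monocyte-like cells had C1q genes under 10 per 10000. No cluster or deposited annotation was used. As the treatment of doublets, cells positive for 2 lineages were set aside (319 WT and 266 KO), and no doublet caller was run. Fibroblast-like and plasma-like cells (23 and 52) were removed by a gate added after leading genes were seen. Macrophage-like states were taken in the order cycling (3 UMIs and 5 per 10000), then MHC class II high or low (50 per 10000), and cells of a further state are not reported here.

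Within each library the counts of a class were added up and expressed as CPM, with exact Poisson intervals and, for ratios, exact conditional binomial intervals. They cover counting error only. Ratios carry no pseudocount. A gene was compared between libraries with at least 100 UMIs over both, and its highest class was sought where it had at least 100 UMIs in all and 50 CPM in any class; CPM is computed here from the deposited counts. The interval calculation was tested on simulated data. The members and lists were chosen with earlier results of these data known. Beside the members, named genes were pathway, ligand and receptor genes past 1.5-fold in macrophage-like cells or among the 3 highest in mature DC-like cells, the 5 highest and 5 lowest targets in macrophage-like cells, the highest and lowest stress gene, and the 3 genes most like each member. The stress genes were Hspa1b (log2 ratio 0.35 in macrophage-like cells) and Fos (-0.08). Promoter sequences are RefSeq's. Python 3.11.15, numpy 2.4.6, scipy 1.17.1, pandas 2.3.3 and matplotlib 3.10.9 were used.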

Additional observations from a re-analysis of the deposited data

Results flagged for a closer look

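For 3 members the counting intervals excluded 0 in opposite directions in different myeloid classes. The log2 ratio of KO over WT for Nfkbia was 0.13 in macrophage-like and -1.08 in granulocyte-like cells, and the former turned to -0.0085 when each cell took the class of its highest marker share. For Tnfaip3 it was -0.59 in granulocyte-like cells, against 0.45 in macrophage-like and 0.43 in monocyte-like cells, and the last turned to -0.16 with cells thinned to 1000 UMIs. For Nfkb2 it was -0.73 in granulocyte-like cells, from under 100 UMIs, against 0.29 in the macrophage-like and the monocyte-like class. With 1 library per genotype the difference between classes was not tested.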

How the results depend on the processing

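No paired analysis was possible because each genotype had 1 library. Across 16 alternatives to the gates, filters, scaling and depth, 159 values were computed for the 10 members in macrophage-like and 3 in granulocyte-like cells. Of these 147 kept within their counting interval, and 10 left it. The 2 others changed sign where the interval had excluded 0: in macrophage-like cells Rela was -0.066 with cells thinned to 1000 UMIs, and Nfkbia was -0.0085 with each cell in the class of its highest marker share. In the latter setting Relb (-0.00095) and Nfkbib (-0.050), whose intervals held 0, also changed sign. Outside these values, thinning turned Tnfaip3 in monocyte-like cells to -0.16. The settings for Nfkbia, Nfkbiz and Tnfaip3 in granulocyte-like cells were chosen after seeing the data. Their log2 ratios stayed below 0 in all, from -1.31 to -0.92 for Nfkbia, from -1.02 to -0.59 for Nfkbiz and from -0.80 to -0.27 for Tnfaip3. The count of members past 1.5-fold stayed at 0 in macrophage-like cells, where Relb moved from 0.19 to 0.71 when thinned, uncounted since it had 24 and 54 UMIs. It was 3 instead of 0 in monocyte-like cells with cells thinned to 1000 UMIs, and 1 instead of 3 in granulocyte-like cells with a fold of 2. Without a UMI minimum it was 4. The share of all genes past the fold is not given for these settings. Members highest in mature DC-like cells numbered 5 to 7, and the median log2 ratio in macrophage-like cells lay between 0.07 and 0.18. The causes were not tested. Depth limits the smaller classes, where intervals of members under 100 UMIs mostly span 1.5-fold.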
